A study of Homo sapiens with 12 samples.

Results

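The nuclear-encoded subunit genes of the respiratory chain and ATP synthase were followed in 12 RNA-Seq libraries of enzalutamide-resistant prostate cancer cells. Members were chosen by gene name and level. Names had to begin with the stems of the complex I (NDUFA, NDUFB, NDUFC, NDUFS, NDUFV), complex III (UQCR), complex IV (COX4 to COX8) or ATP synthase (ATP5) families or be 1 of the 4 SDH genes of complex II, with C14orf2 and USMG5 added as ATP synthase subunits, and the gene had to reach 0.5 RPKM (reads per kilobase of gene, scaled by library total) in at least 3 of the 12 libraries. Of 95 rows with such names, 2 pseudogene names and 8 low rows were left out, which gave 85 of 26441 genes. Of the 85, 81 were subunit genes, with 36 in complex I, 4 in complex II, 9 in complex III, 15 in complex IV and 17 in ATP synthase. The other 4 carried a matching name only and are not subunits: the antisense RNAs NDUFV2-AS1 and NDUFB2-AS1, and ATP5S and ATP5SL. The 8 low rows were the tissue-restricted isoforms COX4I2, COX6A2, COX6B2 and COX8C, the read-through names NDUFC2-KCTD14 and ATP5J2-PTCD1, the antisense RNA NDUFA6-AS1, and ATP5L2, and none of them passed 0.533 RPKM in any library.

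The tested cells were C4-2B-EnzR and LNCaP-EnzR (called MDVr in the labels) infected with lentivirus carrying an shRNA against CXCR7 (shCXCR7), and the controls were the same lines infected with the control vector pLKO (LKO), with 3 libraries in each of the 4 groups by the labels. The study's text speaks of duplicates for C4-2B-EnzR, and the labels were followed. All cells were kept in enzalutamide, an androgen receptor inhibitor, at 10 µM for C4-2B-EnzR and 2 µM for LNCaP-EnzR, so line and dose cannot be told apart, and RNA was taken 4 days after infection. LNCaP is a lymph node metastasis line that depends on the androgen receptor, and C4-2B is a castration-resistant derivative of it. Each line is 1 resistant derivative, and which of the study's hairpins was used for RNA-Seq is not given in the sources used here. Labels do not separate hairpins, so an effect of CXCR7 loss and another effect of the hairpin cannot be told apart. Whether replicates were separate infections is not stated either, so the tests measure the spread between these libraries.

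CXCR7 (gene ACKR3) is an atypical chemokine receptor that signals through arrestin. The respiratory chain passes electrons from NADH (complex I) and succinate (complex II) through coenzyme Q, complex III and cytochrome c to complex IV, which reduces oxygen. Complexes I, III and IV pump protons across the inner mitochondrial membrane, and ATP synthase lets them flow back through a rotating ring of c subunits to make ATP. The catalytic core of complex IV and several membrane subunits of the other complexes are made from mitochondrial DNA and were not analysed here, whereas all other subunits are made from nuclear genes, imported and built in by dedicated assembly factors. Nuclear respiratory factor 1 (NRF1), ETS factors of the GABP type and YY1 are the transcription factors classically tied to these genes.

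Promoter sequences are shown for 5 subunit genes that the results turn on. NDUFB4, NDUFA8 and ATP5O were called higher after the knockdown in both lines, and C14orf2 and COX7A2L had the largest falls. Each sequence is RefSeq, GRCh38.p14, and covers 250 bases before to 50 bases after an annotated start, read in the direction of the gene. The COX7A2L window lies inside the span of that gene (42335559 to 42368957), so it covers an internal start and not the outermost one. Capitals mark a match to the NRF1 core GCGCATG, the ETS motif CCGGAAG or the YY1 motif AAGATGG on either strand. The pair of NRF1 matches in NDUFB4 and in NDUFA8 overlap, since the motif and its reverse complement share letters.
NDUFB4, chr3:120596086-120596385, plus strand: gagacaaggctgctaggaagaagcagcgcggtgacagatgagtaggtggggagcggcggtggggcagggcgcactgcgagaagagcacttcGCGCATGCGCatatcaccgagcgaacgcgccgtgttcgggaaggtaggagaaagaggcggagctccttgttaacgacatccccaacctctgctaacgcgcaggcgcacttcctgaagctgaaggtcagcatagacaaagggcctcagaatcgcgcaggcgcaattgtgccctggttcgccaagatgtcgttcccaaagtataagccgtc
NDUFA8, chr9:122159730-122160029, minus strand: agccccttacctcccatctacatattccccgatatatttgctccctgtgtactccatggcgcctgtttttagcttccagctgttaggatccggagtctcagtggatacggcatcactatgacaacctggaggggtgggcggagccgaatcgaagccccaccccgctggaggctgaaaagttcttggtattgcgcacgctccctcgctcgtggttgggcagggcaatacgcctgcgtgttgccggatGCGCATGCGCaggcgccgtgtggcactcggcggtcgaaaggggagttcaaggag
ATP5O, chr21:33915755-33916054, minus strand: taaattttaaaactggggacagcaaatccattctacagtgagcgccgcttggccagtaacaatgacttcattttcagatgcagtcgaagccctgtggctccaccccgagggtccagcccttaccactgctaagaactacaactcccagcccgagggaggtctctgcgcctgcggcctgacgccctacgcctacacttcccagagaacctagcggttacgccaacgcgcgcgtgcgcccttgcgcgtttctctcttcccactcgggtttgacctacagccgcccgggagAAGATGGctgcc
C14orf2, chr14:103921480-103921779, minus strand: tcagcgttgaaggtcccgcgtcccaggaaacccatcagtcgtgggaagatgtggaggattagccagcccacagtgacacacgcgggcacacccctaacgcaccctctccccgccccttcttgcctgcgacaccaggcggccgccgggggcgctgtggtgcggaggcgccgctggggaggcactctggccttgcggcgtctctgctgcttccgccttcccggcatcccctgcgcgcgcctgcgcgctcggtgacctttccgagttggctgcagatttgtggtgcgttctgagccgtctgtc
COX7A2L, chr2:42361168-42361467, minus strand: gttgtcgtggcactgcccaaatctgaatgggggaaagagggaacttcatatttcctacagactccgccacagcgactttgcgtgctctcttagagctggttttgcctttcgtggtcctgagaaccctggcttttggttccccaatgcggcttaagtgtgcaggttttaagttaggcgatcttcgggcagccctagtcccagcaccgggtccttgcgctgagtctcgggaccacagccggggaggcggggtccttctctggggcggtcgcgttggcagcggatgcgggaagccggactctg
NDUFB4 and NDUFA8 hold the NRF1 core, ATP5O holds the YY1 motif within the last bases of the window, and none of the 3 motifs was matched in the windows of C14orf2 and COX7A2L. Of the 81 subunit genes, 67 matched a promoter in this table. The NRF1 core was found in 14 of 67 (20.9%) subunit promoters and in 4.67% of 27305 promoters. The ETS motif was found in 20 (29.9%) subunit promoters and in 10.7% of all, and the YY1 motif in 16 (23.9%) and 6.06%. At least 1 of the 3 was present in 56.7% of the subunit promoters and 19.3% of all. Split by the knockdown result, 24 of 41 promoters (58.5%) of subunit genes that rose in C4-2B-EnzR held 1 of the motifs, and 14 of 26 (53.8%) of the others did. A match is a run of letters and not a measured binding site.

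The subunit genes were short and strongly expressed. Their length, computed from the steps between RPKM values, had a median of 930 bases (365 to 6506), against 3060 bases over all genes tested in C4-2B-EnzR. Their mean rescaled RPKM had a median of 76.6, against 7.08 over the same genes, and 74 of 81 averaged at least 10 RPKM. Between 127 and 12524 reads per library stood behind each value of these 74 genes. Together the 85 genes took 0.963% to 1.29% of the reads in genes. ATP5B, the catalytic beta subunit of ATP synthase, was the highest member in both C4-2B-EnzR groups, at 493 ± 21.1 rescaled RPKM in shCXCR7 and 446 ± 41.5 in LKO cells (SD, n = 3 each). COX7C, a small subunit of complex IV, was the highest in both LNCaP-EnzR groups, at 565 ± 62.7 in shCXCR7 and 639 ± 24.9 in LKO cells (SD, n = 3 each). At the other end COX7B2, COX7A1 and NDUFA4L2, isoforms better known from testis, muscle or hypoxic cells, averaged at most 2.03 rescaled RPKM in any group, on 0 to 43 reads per library.

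All levels given here are RPKM rescaled between libraries with median-of-ratios factors over 10041 genes, because 1 library stands apart. In LNCaP-EnzR shCXCR7 replicate 3, 27.4% of the counted reads fell in genes, against 67.0% to 75.5% in the other 11 libraries, and 1636 genes were at 0, against 8719 to 9652. Its deposited RPKM of expressed genes are low (factor 0.432, against 1.01 to 1.14). After rescaling its member sum was still the lowest of the line, 6955 rescaled RPKM, where shCXCR7 replicates 1 and 2 had 8113 and 8178 and the LKO libraries 7910 to 8136. The counts and medians of LNCaP-EnzR are given with and without it. ACKR3 itself was at 17.5 to 21.6 rescaled RPKM in shCXCR7 and 76.7 to 78.4 in LKO cells of C4-2B-EnzR, and at 48.11 to 61.05 in shCXCR7 and 121 to 133 in LKO cells of LNCaP-EnzR. The groups did not overlap in either line. The 10 luminal prostate markers summed to 750 to 773 rescaled RPKM in shCXCR7 and 840 to 924 in LKO cells of C4-2B-EnzR, and to 659 to 752 in shCXCR7 and 746 to 761 in LKO cells of LNCaP-EnzR, with none of the 10 under 1 RPKM everywhere. The 5 basal markers summed to 0.805 to 6.32 rescaled RPKM in LNCaP-EnzR shCXCR7, and to at most 1.00 in the other groups. Basal, fibroblast and blood markers summed to at most 11.1 rescaled RPKM in any library. Their part in the results was not tested, and in such bulk RNA fewer cells of a type and less RNA per cell cannot be told apart.

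In C4-2B-EnzR cells the chain genes rose on a broad front upon CXCR7 knockdown. Of 84 members tested, 49 were higher and 4 lower in shCXCR7 than in LKO cells, where limma called 22.4% of all 13209 genes higher and 20.7% lower at a Benjamini-Hochberg adjusted p under 0.05. The members' shares were 58.3% and 4.76%. The median log2 fold change (shCXCR7 over LKO) was 0.28 over the members and 0.01 over all genes tested. The rises were modest, and none reached 2-fold at an adjusted p under 0.001, a limit that 1.67% of all genes met upward in limma. At an unadjusted p under 0.05 in limma, 52 members were higher, and the share of all genes at that limit was not computed. Without shCXCR7 replicate 2 the count fell to 32 higher members, or 38.1%, where the share of all genes was 15.8%. It was 33 to 47 without each of the other libraries in turn, where 15.5% to 24.1% of all genes were called higher. With scaling on genes of at least 10 RPKM it was 41 higher and 4 lower, where 16.5% and 25.7% of all genes were called. The medians were then 0.19 over the members and -0.08 over all genes.

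The rise took in every complex. In complex I, the NADH dehydrogenase, 24 of 36 genes rose and 1 fell, with a median log2 fold change of 0.34. In complex II, succinate dehydrogenase, 3 of 4 rose, in complex III 3 of 9, in complex IV 8 of 14 with 1 lower, and in ATP synthase 11 of 17 with 2 lower. The medians were 0.27, 0.18, 0.27 and 0.38. Over 80 subunit genes in this line, the log2 fold change had a Spearman rho of 0.117 with mean level and 0.054 with length. These values are a description across genes that share the same libraries. They cover subunit genes only, and whether strongly expressed genes in general rose was not tested.

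**Figure D1:**
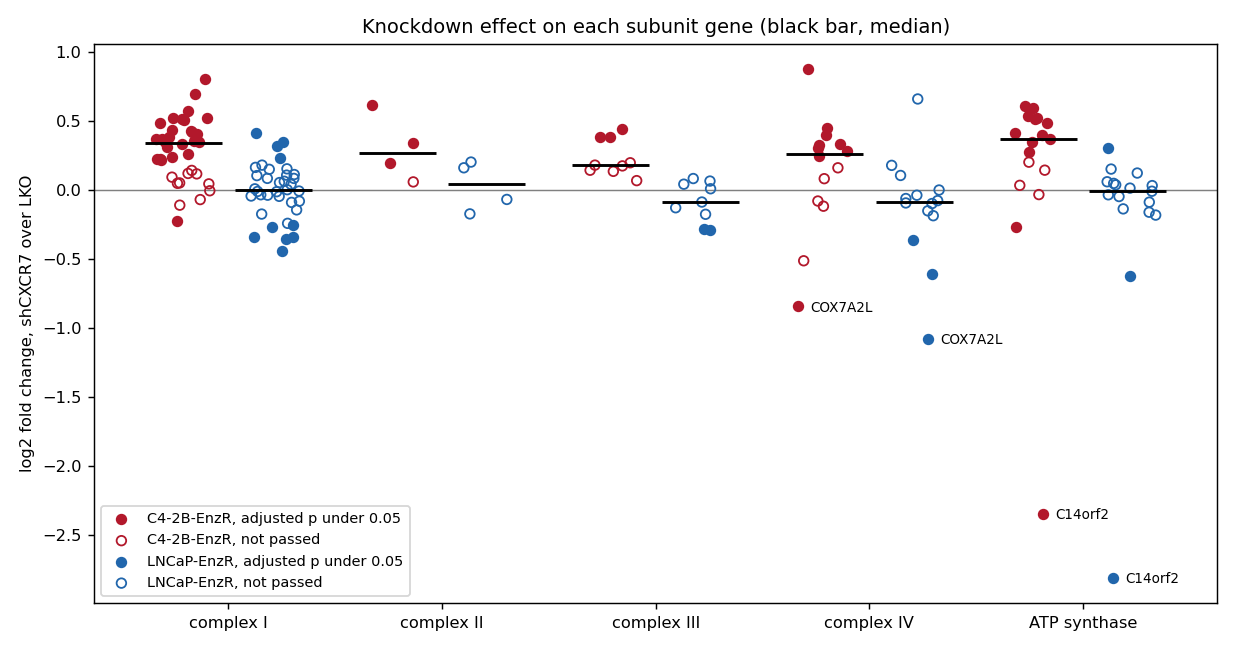
Log2 fold change of each subunit gene, shCXCR7 over LKO, by complex, in C4-2B-EnzR (red) and LNCaP-EnzR (blue); filled points passed an adjusted p under 0.05 in limma and black bars are medians. The red medians lie at 0.18 to 0.38 and the blue ones between -0.08 and 0.05, while C14orf2 and COX7A2L lie far below the rest in both lines.

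NDUFB5 and NDUFA5 of complex I rose most in C4-2B-EnzR among called members other than COX7B2, whose reads were few. NDUFB5, an accessory subunit of the complex I membrane arm, was at 94.0, 96.8 and 77.6 rescaled RPKM in the 3 shCXCR7 libraries, against 42.4, 53.3 and 58.2 in LKO. Its log2 fold change was 0.80 (SE 0.13, adjusted p = 0.00205). NDUFA5, an accessory subunit of the matrix arm, was at 12.78, 12.86 and 12.01 in shCXCR7, against 6.41, 7.76 and 8.92 in LKO. That is a log2 fold change of 0.70 (SE 0.12, adjusted p = 0.00229), and as for NDUFB5 the groups did not overlap. NDUFC1, a small membrane subunit, had 28.3, 25.9 and 24.5 in shCXCR7 and 17.5, 16.2 and 18.9 in LKO cells, a log2 difference of 0.57.

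In complex II, SDHD, 1 of the pair of membrane anchors, had 37.3, 38.5 and 32.04 rescaled RPKM in shCXCR7 and 18.4, 24.8 and 27.6 in LKO cells (log2 fold change 0.62, adjusted p = 0.0108). SDHB, the iron-sulfur subunit, and SDHA, the flavoprotein, rose by 0.35 and 0.20 on the log2 scale, calls that ended in 5 and 8 of the 17 alternatives run for them. SDHC, the other anchor, had 16.05, 16.18 and 15.03 in shCXCR7 and 13.52, 14.94 and 16.96 in LKO cells, and did not pass.

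In complex III the 3 that rose were UQCRB (log2 fold change 0.45), which binds ubiquinone, UQCRH, the hinge protein (0.39), and the core protein UQCRC2 (0.38). UQCRFS1, the Rieske iron-sulfur protein, was at 47.4, 49.2 and 40.0 in shCXCR7 and 41.7, 43.8 and 43.9 in LKO cells, which overlap. In complex IV the leading rises were COX5A (0.45) and COX5B (0.40), which sit on the matrix side, and COX4I1 (0.34), the regulatory subunit with an ATP site. COX4I1 had 271, 261 and 237 in shCXCR7 and 197, 197 and 213 in LKO cells. COX7B2 was called higher too (0.88), but on 10 to 20 reads in shCXCR7 and 5 to 9 in LKO libraries.

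In ATP synthase the largest rises were USMG5 and ATP5O. USMG5 (current symbol ATP5MK), a small membrane subunit at the dimer interface, was at 113, 105 and 89.9 rescaled RPKM in shCXCR7 and 62.3, 64.5 and 74.0 in LKO cells (log2 fold change 0.61, SE 0.10, adjusted p = 0.00235). ATP5O (ATP5PO), the oligomycin sensitivity subunit of the stalk, was at 136, 131 and 122 in shCXCR7 and 83.7, 80.2 and 93.6 in LKO cells (0.59, SE 0.08, adjusted p = 0.000787). Of the catalytic subunits, ATP5A1 (alpha) rose by 0.35, and ATP5B (beta) had 492, 514 and 472 in shCXCR7 and 401, 457 and 482 in LKO cells, which did not pass (adjusted p = 0.186).

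Summed by complex, the rescaled RPKM of the 81 subunit genes came to 8127, 7968 and 7180 in the shCXCR7 libraries and 6213, 6353 and 6810 in the LKO libraries of C4-2B-EnzR. The groups did not overlap. In LNCaP-EnzR the sums were 8095, 8159 and 6935 in shCXCR7 and 7892, 8118 and 8093 in LKO, where shCXCR7 replicate 3 was the lowest library and replicates 1 and 2 lay inside or just above the LKO range. The replicate 3 library of C4-2B-EnzR shCXCR7 was also the lowest of its group, and LKO replicate 3 the highest of its own, so the smallest gap between the groups is between those libraries.

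**Figure D2:**
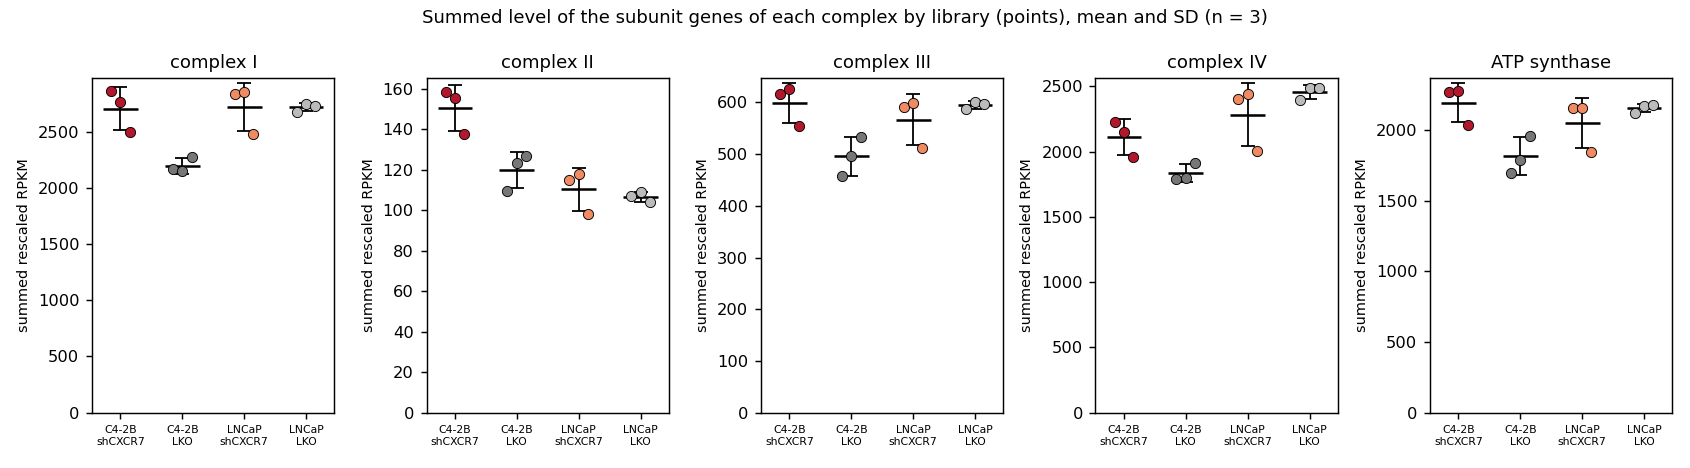
Summed rescaled RPKM of the subunit genes of each complex in every library (points), with the mean and SD of 3 libraries, for shCXCR7 and LKO cells of each line. In C4-2B-EnzR every complex had higher sums in all shCXCR7 libraries than in any LKO library, as for complex I (2494 to 2860 against 2148 to 2278), and in LNCaP-EnzR the lowest point of the shCXCR7 groups is replicate 3.

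In LNCaP-EnzR cells the chain genes showed no common direction. Of 84 members tested, 5 were higher and 13 lower in shCXCR7 than in LKO cells, against 21.6% of 13199 genes called higher and 20.4% called lower. The members' shares were 5.95% and 15.5%, and their median log2 fold change was -0.01, against 0.04 over all genes. The count of rises depended on single libraries and on the scaling. Without shCXCR7 replicate 3 it was 19 higher and 13 lower, or 22.6% and 15.5% of the members against 22.5% and 24.1% of all genes, with a median of 0.05 over the members and -0.01 over all genes. Without LKO replicate 2 it was 2 higher and 10 lower, where 17.2% and 16.9% of all genes were called. With scaling on genes of at least 10 RPKM it was 14 higher and 17 lower. That is 16.7% and 20.2% of the members against 21.5% and 18.5% of all genes. Quantile normalization gave 26 and 12 (where 24.5% and 22.1% of all genes were called). Subtracting a background of 0.25 RPKM from shCXCR7 replicate 3 alone gave 12 and 13 (23.3% and 22.9% of all genes). The values as deposited gave 0 and 1 (1.79% and 2.82% of all genes), where the median of all genes was -0.31.

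The 13 lower members of LNCaP-EnzR lay in all complexes but II. In complex I they were NDUFS8 (log2 fold change -0.44) and NDUFS7 (-0.25), which hold the last iron-sulfur clusters before ubiquinone, and the accessory subunits NDUFB8, NDUFB7, NDUFB2 and NDUFA7. NDUFS8 was at 70.1, 74.2 and 70.8 rescaled RPKM in shCXCR7 and 92.2, 100.4 and 99.3 in LKO cells, with no overlap (adjusted p = 0.000481). In complex III they were UQCRFS1 (-0.29) and UQCRQ (-0.28), calls that ended in 2 and 4 of 19 alternatives, with values of -0.21 and -0.19 without shCXCR7 replicate 3, and in complex IV COX7A2L, NDUFA4 and COX6A1. NDUFA4, first described in complex I and now counted with complex IV, was at 47.4, 49.0 and 41.4 in shCXCR7 and 65.5, 71.0 and 73.6 in LKO cells (-0.61, SE 0.08, adjusted p = 0.000261). In C4-2B-EnzR the same gene had 49.4, 49.6 and 44.5 in shCXCR7 and 46.3, 53.4 and 51.8 in LKO cells, which overlap. On the deposited scale C14orf2 alone of the 13 kept its call, with COX7A2L at -1.44 (adjusted p = 0.155) and ATP5G1 at -0.99 (adjusted p = 0.484) where the median of all genes was -0.31.

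A few members moved the same way in both lines. NDUFB4, NDUFA8, NDUFS4, NDUFC2 and ATP5O were called higher in both, and C14orf2, COX7A2L, ATP5G1 and NDUFB2 lower in both. Each line has its own control libraries, so these are separate tests. Of all genes tested, 22.4% were called higher in C4-2B-EnzR and 21.6% in LNCaP-EnzR, and 20.7% and 20.4% lower. The share of all genes called the same way in both lines was not computed, so the shared calls are a description only. NDUFB4, an accessory subunit of the complex I membrane arm, was at 194, 179 and 164 rescaled RPKM in shCXCR7 and 120, 123 and 129 in LKO cells of C4-2B-EnzR (log2 fold change 0.53). In LNCaP-EnzR it was at 170.5, 170.1 and 147.7 in shCXCR7 and 111.7, 123.4 and 130.2 in LKO cells (0.42). NDUFS4, an accessory subunit whose loss causes Leigh syndrome, rose by 0.35 in C4-2B-EnzR and 0.32 in LNCaP-EnzR, and NDUFA8, a subunit of the intermembrane space side, by 0.53 in C4-2B-EnzR and 0.24 in LNCaP-EnzR. The NDUFA8 call in LNCaP-EnzR (adjusted p = 0.0427) ended in 8 of 19 alternatives, among them 6 that each leave out 1 library or turn to the deposited values, and the NDUFB2 call in C4-2B-EnzR (-0.22, adjusted p = 0.0456) ended in 8 of 17. The NDUFC2 calls ended in 4 of 17 alternatives in C4-2B-EnzR and in 3 of 19 in LNCaP-EnzR.

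C14orf2 had by far the largest change of all members. This gene was added to the members by name, with its fall in LNCaP-EnzR already known from these data. Its values and rank there are thus a description and not independent support. It encodes a small proteolipid of the ATP synthase membrane part (current symbol ATP5MJ, also called 6.8PL) and lies on chromosome 14 (GRCh38.p14, 103912288 to 103921529). In C4-2B-EnzR it was at 12.4, 12.7 and 10.6 rescaled RPKM in shCXCR7, against 56.5, 63.6 and 64.4 in LKO. In LNCaP-EnzR it was at 14.9, 12.9 and 12.8 in shCXCR7, against 97.9, 94.5 and 94.8 in LKO. All 6 shCXCR7 libraries thus lay between 10.6 and 14.9, far under every LKO library. Behind these were 154, 147 and 127 reads in shCXCR7 and 686, 626 and 837 in LKO libraries of C4-2B-EnzR. In LNCaP-EnzR there were 176, 177 and 181 reads in shCXCR7 and 872, 1296 and 986 in LKO libraries. In C4-2B-EnzR this was 0.197 of the control level, a log2 fold change of -2.35 (SE 0.09, adjusted p = 6.98e-06). In LNCaP-EnzR it was 0.143 of the control level, or -2.81 (SE 0.07, adjusted p = 6.56e-08). ACKR3, the target of the hairpin, fell less, with log2 fold changes of -1.96 in C4-2B-EnzR and -1.22 in LNCaP-EnzR. Whether C14orf2 fell through the loss of CXCR7 or through another effect of the hairpin was not tested. Among genes of at least 1 RPKM on average, C14orf2 ranked 18 of 12050 from the largest fall in C4-2B-EnzR and 3 of 11968 in LNCaP-EnzR. It passed in all 17 alternatives run in C4-2B-EnzR, with log2 fold changes from -2.44 to -2.27, and in all 19 in LNCaP-EnzR, from -3.17 to -2.73. USMG5, the other small membrane subunit added by name, did not share the fall, with 114, 109 and 93.2 in shCXCR7 and 100.2, 104 and 99.5 in LKO cells of LNCaP-EnzR.

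COX7A2L was the next largest fall in both lines. Also known as SCAFI or COX7RP, it is a relative of COX7A2 that joins complexes III and IV into supercomplexes. It was at 29.4, 27.9 and 24.8 rescaled RPKM in shCXCR7 and 44.1, 49.5 and 54.3 in LKO cells of C4-2B-EnzR, a log2 fold change of -0.84 (SE 0.10, adjusted p = 0.000419). In LNCaP-EnzR it was at 24.58, 24.97 and 19.00 in shCXCR7 and 47.9, 48.8 and 47.7 in LKO cells, a log2 fold change of -1.08 (SE 0.10, adjusted p = 3.19e-05). Neither line's groups overlapped. COX7A2, the widely expressed isoform that sits at that place within complex IV, was at 131, 127 and 120 in shCXCR7 and 102, 98.9 and 104 in LKO cells of C4-2B-EnzR, a rise of 0.31 on the log2 scale. Only C14orf2 and COX7A2L fell 2-fold or more at an adjusted p under 0.001 in LNCaP-EnzR, where 1.86% of all genes did, and only C14orf2 in C4-2B-EnzR, where 2.57% did. In LNCaP-EnzR no member rose that far in limma, where 1.92% of all genes did. At an unadjusted p under 0.05 in limma, 8 members were higher there, and the share of all genes at that limit was not computed.

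The 3 genes for the c subunit of ATP synthase, which encode the same mature protein, went different ways. ATP5G1 fell to 67.7, 70.1 and 60.8 rescaled RPKM in shCXCR7 cells of C4-2B-EnzR, against 79.1, 79.0 and 80.0 in LKO cells (log2 fold change -0.26, SE 0.07, adjusted p = 0.0175). This call ended in 4 of 17 alternatives, where the adjusted p was 0.0523 to 0.0687. In LNCaP-EnzR ATP5G1 was at 63.6, 61.3 and 64.7 in shCXCR7 and 94.8, 99.7 and 98.2 in LKO cells (-0.62, SE 0.06, adjusted p = 3.91e-05). ATP5G2 was at 97.9, 106 and 94.5 in shCXCR7 and 66.4, 66.8 and 71.9 in LKO cells of C4-2B-EnzR, a rise of 0.54 (adjusted p = 0.000675), and ATP5G3 rose by 0.42 there. In LNCaP-EnzR neither passed, with ATP5G2 at 0.04 and ATP5G3 at 0.13. The share of ATP5G1 in the sum of the 3 was 32.2% ± 0.623 in shCXCR7 and 44.7% ± 1.32 in LKO cells of C4-2B-EnzR, and 26.0% ± 2.23 in shCXCR7 and 36.0% ± 0.569 in LKO cells of LNCaP-EnzR (SD, n = 3 each). The sum itself was 205.8 ± 12.04 in shCXCR7 and 177.8 ± 6.51 in LKO cells of C4-2B-EnzR, and 244 ± 14.5 in shCXCR7 and 271 ± 4.82 in LKO cells of LNCaP-EnzR (SD, n = 3 each).

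**Figure D3:**
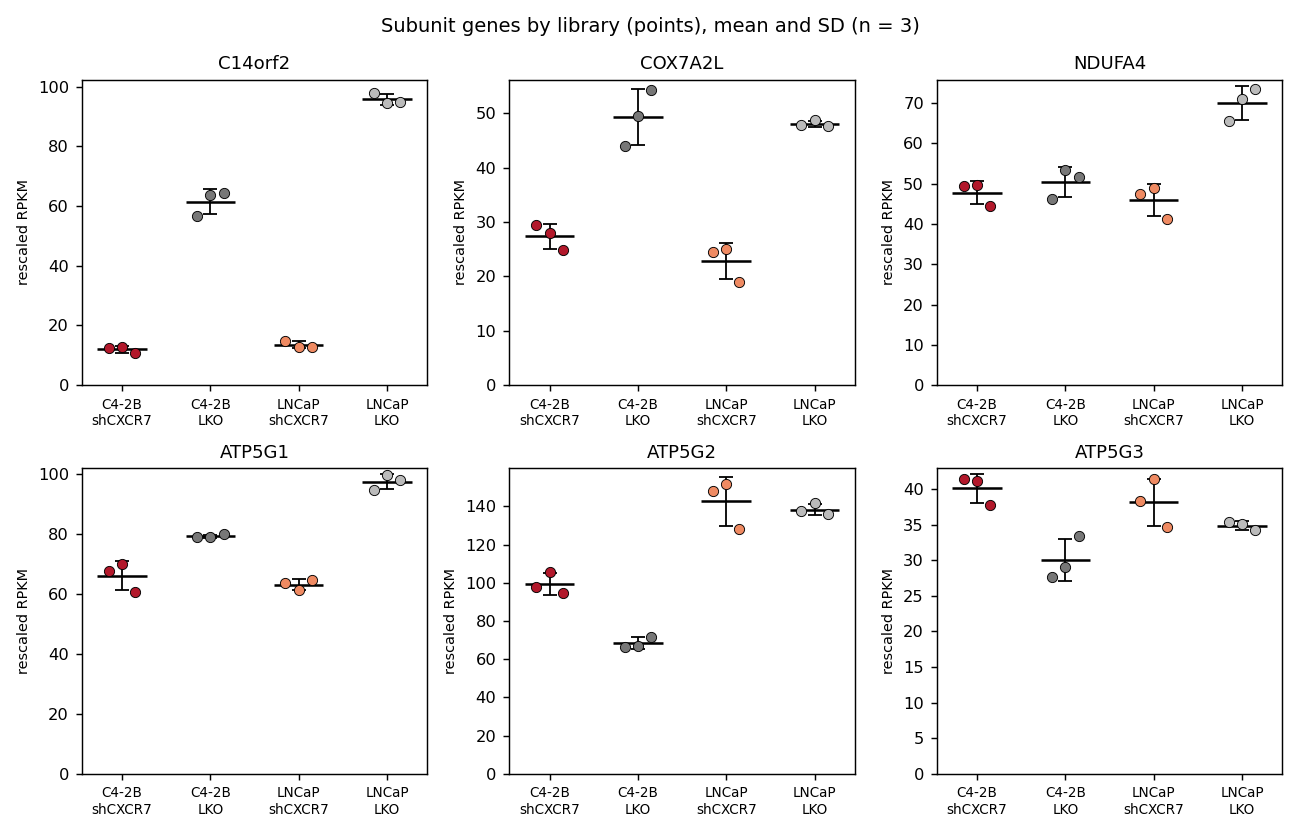
Rescaled RPKM of C14orf2, COX7A2L, NDUFA4 and the 3 c-subunit genes ATP5G1, ATP5G2 and ATP5G3 in each library (points), with the mean and SD of 3 libraries per group. C14orf2 lies at 10.6 to 14.9 in all 6 shCXCR7 libraries, ATP5G1 is lower in shCXCR7 in both lines, and ATP5G2 is higher in all shCXCR7 than in all LKO libraries of C4-2B-EnzR and overlaps in LNCaP-EnzR.

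The knockdown effect was then compared between the lines with an interaction term over the 12 libraries. The effect was more positive in C4-2B-EnzR than in LNCaP-EnzR for 21 of 85 members and less positive for 0, where 6.51% of 14212 genes differed upward and 6.85% downward. At an unadjusted p under 0.05 it was less positive for 1 member in limma, and also for 1 with voom on recovered reads. The share of all genes at that limit was not computed. At the adjusted limit the members' share upward was 24.7%, and their median difference was 0.31 on the log2 scale, against -0.03 over all genes. With scaling on genes of at least 10 RPKM these medians were 0.19 and -0.15, with quantile normalization 0.20 and 0.02, and on the deposited values 0.69 and 0.33. The largest differences among called members were NDUFB5 (0.64), NDUFB1 (0.61) and NDUFA5 (0.59), all of complex I, and the NDUFB5 call ended in 13 of 23 alternatives. NDUFB1, a small membrane subunit, was at 101, 90.8 and 82.0 rescaled RPKM in shCXCR7 and 70.6, 68.7 and 70.7 in LKO cells of C4-2B-EnzR. In LNCaP-EnzR it was at 115.1, 111.8 and 83.5 in shCXCR7 and 119.0, 120.2 and 123.6 in LKO cells. ATP5G2 (0.50), NDUFA4 (0.53) and USMG5 (0.56) also differed. C14orf2 differed by 0.46, with shCXCR7 levels of 11.9 ± 1.13 in C4-2B-EnzR and 13.5 ± 1.18 in LNCaP-EnzR, and LKO levels of 61.5 ± 4.33 in C4-2B-EnzR and 95.8 ± 1.90 in LNCaP-EnzR (SD, n = 3 each). The count of differing members was 17 without LNCaP-EnzR shCXCR7 replicate 3, where 6.44% of all genes differed upward. It was 9 without LNCaP-EnzR LKO replicate 2 (4.3% of all genes) and 11 without C4-2B-EnzR LKO replicate 2 (4.67%). It was 8 and 9 without C4-2B-EnzR shCXCR7 replicates 1 and 2 (4.02% and 4.04%), and 32 without C4-2B-EnzR shCXCR7 replicate 3 (6.07%).

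The control cells of the lines already differed in these genes. In C4-2B-EnzR LKO against LNCaP-EnzR LKO cells, 9 of 85 members were higher and 47 lower, where limma called 32.2% of 14212 genes higher and 29.2% lower. The members' shares were 10.6% and 55.3%, and their median log2 difference (C4-2B-EnzR over LNCaP-EnzR) was -0.25, against 0.03 over all genes. At 2-fold and an adjusted p under 0.001, 4 members were lower and 0 higher in limma, where 6.2% of all genes were lower and 8.02% higher. At an unadjusted p under 0.05 in limma, 10 members were higher, and the share of all genes at that limit was not computed. With scaling on genes of at least 10 RPKM the split was 24 higher and 35 lower, where 41.7% and 20.3% of all genes were called. The median was then -0.05 over the members and 0.21 over all genes. The split was 18 and 40 with quantile normalization (30.1% and 32.9% of all genes), and 1 and 3 on the values as deposited (16.7% and 9.48%). This comparison uses the same LKO libraries as the knockdown tests, so no relation between them was computed, and the values stand side by side.

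By complex, 24 of 36 genes of complex I were lower in C4-2B-EnzR and 3 higher, and 12 of 17 of ATP synthase were lower and 1 higher. In complex III 4 of 9 genes were lower and 1 higher, and in complex IV 5 of 15 lower and 2 higher. In complex II 2 of 4 genes were higher and 1 lower. NDUFA2, a small complex I subunit with a thioredoxin-like fold, was at 30.8, 32.6 and 35.3 rescaled RPKM in C4-2B-EnzR LKO and 86.2, 90.8 and 84.2 in LNCaP-EnzR LKO cells. The log2 difference was -1.40 (SE 0.07, adjusted p = 5.1e-09). UQCRQ, a complex III subunit next to cytochrome b, was at 29.2, 30.0 and 30.7 in C4-2B-EnzR and 79.0, 80.9 and 73.6 in LNCaP-EnzR controls (-1.37). NDUFC2 (-1.10), ATP5G2 (-1.01) and NDUFC1 (-0.96) followed. SDHA was at 37.2, 37.9 and 36.3 in C4-2B-EnzR and 27.7, 28.9 and 26.9 in LNCaP-EnzR controls (0.41, adjusted p = 2.94e-05), and SDHB (0.49), UQCR10 (0.44), NDUFB9 (0.33) and ATP5A1 (0.33) were higher too. Of the low isoforms, COX7B2 was called higher (1.06) on 5 to 9 reads in C4-2B-EnzR and 1 to 4 in LNCaP-EnzR controls.

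**Figure D4:**
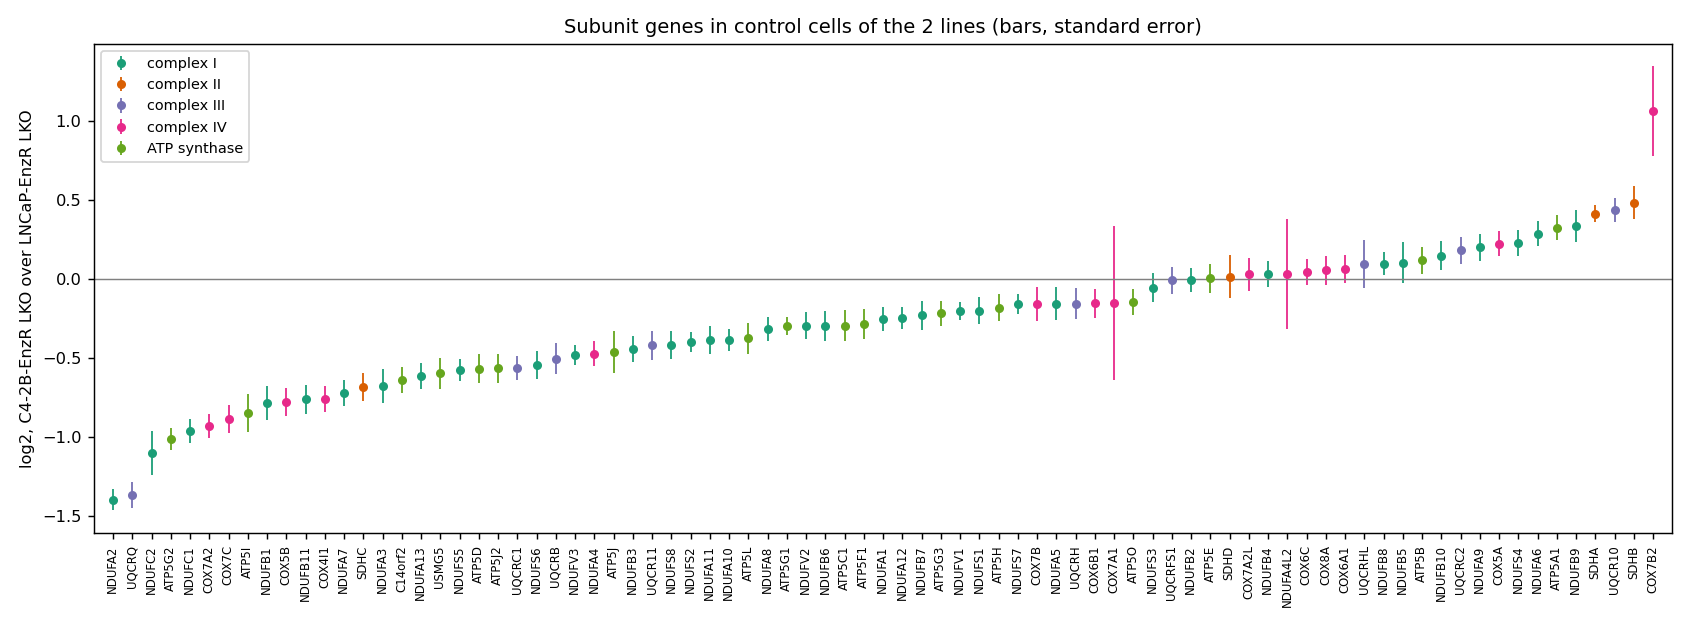
Log2 difference between control cells of the lines, C4-2B-EnzR LKO over LNCaP-EnzR LKO, for each of the 81 subunit genes in order, coloured by complex, with standard errors. Most points lie under 0, from NDUFA2 at -1.40, while SDHA, SDHB and UQCR10 are among those above 0.

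Genes around the chain were counted in the same tests. Of all genes tested, limma called 22.4% higher and 20.7% lower in C4-2B-EnzR, and 21.6% and 20.4% in LNCaP-EnzR. These shares stand beside every knockdown count of a list that follows, and no list was tested against them. Of 16 complex I assembly factors, 3 were higher and 1 lower after knockdown in C4-2B-EnzR, and 4 and 4 in LNCaP-EnzR. Of 25 complex IV assembly factors, 6 were higher and 2 lower in C4-2B-EnzR, and 4 and 8 in LNCaP-EnzR, with CMC2, a twin-cysteine factor, at -0.66 in C4-2B-EnzR and -0.85 in LNCaP-EnzR. Of 6 complex III factors, 1 was higher and 3 lower in C4-2B-EnzR, and 5 lower in LNCaP-EnzR, where limma called 21.6% of all genes higher and 20.4% lower. LYRM7, which stabilises the Rieske protein before its insertion, fell by 0.86 in C4-2B-EnzR and by 1.09 in LNCaP-EnzR on the log2 scale. Of 4 complex II factors, 2 were higher in C4-2B-EnzR, and 3 higher and 1 lower in LNCaP-EnzR, and SDHAF4, which helps SDHA and SDHB pair, rose by 1.36 in C4-2B-EnzR and 0.51 in LNCaP-EnzR. Of the 4 ATP synthase factors and inhibitor, 1 was higher and 1 lower in C4-2B-EnzR, and 1 and 3 in LNCaP-EnzR, and ATPAF1, a chaperone of the beta subunit, rose by 0.47 in C4-2B-EnzR and 0.26 in LNCaP-EnzR.

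Cytochrome c, encoded by CYCS, carries electrons between complexes III and IV, and it fell by 0.46 in C4-2B-EnzR and by 0.84 in LNCaP-EnzR. It belongs to a list of 14 carriers and coenzyme Q genes, in which 4 were higher and 3 lower in C4-2B-EnzR, and 5 and 4 in LNCaP-EnzR, with ETFDH, which feeds electrons from fat oxidation into coenzyme Q, at 0.76 in C4-2B-EnzR and 0.56 in LNCaP-EnzR. Of 16 TCA cycle genes 4 were higher and 3 lower in C4-2B-EnzR, and 1 and 7 in LNCaP-EnzR. CS, citrate synthase, fell by 0.93 in C4-2B-EnzR and by 0.89 in LNCaP-EnzR. Of 13 genes of the outer membrane and import 3 were higher and 3 lower in C4-2B-EnzR, and 2 and 4 in LNCaP-EnzR.

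Among 14 regulators of mitochondrial biogenesis, 13 were tested in C4-2B-EnzR with 3 higher and 4 lower, and 12 in LNCaP-EnzR with 1 higher and 2 lower. GABPB1, the beta subunit of the ETS factor GABP, rose by 1.54 in C4-2B-EnzR and 1.15 in LNCaP-EnzR, while GABPA, its DNA-binding subunit, fell by 0.63 in C4-2B-EnzR and by 0.80 in LNCaP-EnzR. ESRRA, the estrogen-related receptor that drives many of these genes, fell by 0.36 in C4-2B-EnzR and by 0.62 in LNCaP-EnzR. NRF1 itself fell by 0.30 in C4-2B-EnzR and was at 0.15 in LNCaP-EnzR without passing, and YY1 passed in neither line, at 0.21 in C4-2B-EnzR and 0.13 in LNCaP-EnzR.

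Of the 4 members that are not subunits, none passed in either knockdown. ATP5S was at 6.26, 7.73 and 6.23 rescaled RPKM in shCXCR7 and 5.69, 5.39 and 5.67 in LKO cells of C4-2B-EnzR (adjusted p = 0.0743), and ATP5SL was at 9.11, 8.68 and 9.90 in shCXCR7 and 8.42, 6.95 and 8.52 in LKO cells of C4-2B-EnzR. Both antisense RNAs stayed under 2.6 rescaled RPKM, and whether the counting used strand is not given in the sources used here, so they cannot be told apart from reads of NDUFV2 and NDUFB2. UQCRHL, an intron-less copy of UQCRH, averaged 3.69 to 4.85 rescaled RPKM by group and may share reads with its parent gene, as may subunit genes with many processed pseudogenes.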

How the data were processed

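Libraries were made by the authors with the NEBNext Ultra RNA kit. Reads were aligned with STAR, and the submitters' processing notes name hg38 as the build. The authors deposited RPKM values by gene in a single table, which an in-house script produced and the paper calls FPKM. Neither the annotation nor the strand setting is given in the sources used here. Of 26475 lines, 32 without values and repeats among 4 that share a symbol were dropped, which left 26441 genes. Whole reads were recovered from the RPKM steps for 25029 of 25030 genes with a value (within 0.02 reads), with 6382001 to 9834301 reads in genes per library, and are used for read numbers and for an added voom fit.

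The deposited RPKM were divided by median-of-ratios factors over 10041 genes of at least 1 RPKM in all 12 libraries, the kind of scaling DESeq2, the authors' test, applies to counts, and log2(RPKM + 0.25) was fitted with limma 3.58.1 in R 4.3.3 (moderated variance with trend), per line, or over 12 libraries for the interaction and the control lines, over genes of at least 0.5 RPKM in at least 3 libraries. Fold changes on this scale understate those of low genes. Adjusted p-values are Benjamini-Hochberg over all genes tested. Python 3.11.15 with pandas 2.3.3, numpy 2.4.6, numba 0.67.0 and matplotlib 3.10.9 was used otherwise. On simulated data with known changes of 1 on the log2 scale, 80.6% were found in the LNCaP-EnzR fit (13199 genes) and 83.6% in the C4-2B-EnzR fit (13209 genes), and of changes of 0.5, 40.9% and 45.5%. The changed genes were drawn at random from all genes, and noise was drawn separately for each gene. No shift shared by a whole library was simulated, so these shares may not hold for the real libraries. No library was a copy of another.

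Members and gene lists were chosen with earlier results of these data known, the fall of C14orf2 in LNCaP-EnzR among them. Named genes were up to 3 rises and 3 falls per complex and knockdown, 3 each way for the difference, 5 each way for the control lines and 3 each way per list, with C14orf2 and USMG5 always, other genes being given for levels or as isoforms. Alternatives were the deposited scale, quantile normalization, other pseudocounts and filters, robust moderation, 1 joint fit, a replicate block, each library left out and a stricter limit. A further alternative subtracted a background of 0.25 RPKM from LNCaP-EnzR shCXCR7 replicate 3 only. Symbols and promoters came from RefSeq, GRCh38.p14, to which all 85 members matched by symbol or older name. Promoter windows were matched for 67 subunit genes.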

Additional observations from a re-analysis of the deposited data

Results flagged for a closer look

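Members named for the difference between the lines were picked among those called by the interaction term in limma (C4-2B-EnzR minus LNCaP-EnzR, log2). C14orf2 and USMG5 were named in any case. That the picked members differed follows from this choice and is no separate result. The difference was 0.64 for NDUFB5 (adjusted p = 0.0372), a call that ended in 13 of 23 alternatives. It was 0.61 for NDUFB1 (adjusted p = 0.0203), lost in 3 of 23, and 0.59 for NDUFA5 (adjusted p = 0.019), lost in 1 of 23. USMG5 differed by 0.56 (adjusted p = 0.0194), lost in 3 of 23. C14orf2 differed by 0.46 (adjusted p = 0.0221), lost in 6 of 23, while it fell in both lines.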

How the results depend on the processing

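Scaling and single libraries changed the counts most. On the values as deposited, members called in LNCaP-EnzR were 0 higher (5 as reported) and 1 lower (13), where 1.79% and 2.82% of all genes were called. In C4-2B-EnzR 2 were lower (4), where 18.2% of all genes were. For the difference between lines it was 0 (21), where 0.141% of all genes differed upward. Between the control lines it was 1 higher (9) and 3 lower (47), where 16.7% and 9.48% of all genes were called. On that scale NDUFC2 (-0.011), NDUFS4 (-0.042), ATP5O (-0.058) and NDUFA8 (-0.131) turned negative in LNCaP-EnzR, where the median of all genes was -0.31. Quantile normalization gave 26 higher in LNCaP-EnzR (24.5% of all genes) and 18 higher between the control lines (30.1%). No filter on low values gave 13 for the difference (2.58% of all genes). Subtracting the background from LNCaP-EnzR shCXCR7 replicate 3 alone gave 12 higher in LNCaP-EnzR (23.3% of all genes). Chosen after seeing the data, scaling on genes of at least 10 RPKM gave 14 higher in LNCaP-EnzR (21.5% of all genes) and 24 between the control lines (41.7%). With the background subtracted as well it gave 14 in LNCaP-EnzR (22.9%). Voom on recovered reads, also chosen then, moved none of the counts at an adjusted p under 0.05 by over 1.5 times. With voom, members higher at an unadjusted p under 0.05 in LNCaP-EnzR were 5 (8 as reported), and the share of all genes was not computed. At 2-fold and an adjusted p under 0.001 there were 0 higher and 2 lower in LNCaP-EnzR, 0 higher and 1 lower in C4-2B-EnzR, 0 for the difference, and 0 higher and 4 lower between the control lines. With each library left out in turn, the counts were 2 to 19 higher in LNCaP-EnzR, 32 to 47 higher and 2 to 4 lower in C4-2B-EnzR, and 8 to 32 for the difference. The cause of these changes was not tested.

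Deviations of same-numbered shCXCR7 and LKO libraries correlated at -0.05, 0.04 and -0.34 in C4-2B-EnzR and at 0.02, 0.05 and -0.08 in LNCaP-EnzR. For libraries of different number they correlated at -0.28 to 0.29 in C4-2B-EnzR and -0.09 to 0.07 in LNCaP-EnzR. Deviations from means of 3 libraries cannot decide whether replicate numbers pair the libraries. With the replicate block, 38 members were higher and 2 lower in C4-2B-EnzR, where 18.7% and 17.8% of all genes were called. In LNCaP-EnzR it was 5 and 13 (20.4% and 20.1% of all genes). For the difference 18 were higher (5.1%), and between the control lines 9 were higher and 45 lower (31.4% and 28.3%). Reads of the low isoforms COX7A1, COX7B2 and NDUFA4L2 allow no firm statement on them.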
